A study of Homo sapiens with 7 samples.

Results

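The core cardiac transcription factors are the DNA-binding proteins that switch on and maintain the heart muscle programme. Here they are 10 genes fixed by name: GATA4, GATA6, NKX2-5, TBX5, TBX20, HAND1, HAND2, MEF2A, MEF2C and MEF2D. Each name matched 1 row of the 60234 genes in the deposited expression table, and all 10 were expressed highly enough to enter the tests, which covered 15988 genes. The values are TPM (transcript abundance scaled to a fixed library total), a level per transcript length and relative to all RNA of a library, from poly-A RNA of WTC-11 cardiomyocytes. WTC-11 is an established human induced pluripotent stem cell line. Both groups were cells of this 1 line, with no genetic change named in the labels, differentiated with small molecules, matured for 35 days and then exposed passively for 96 h to an antisense oligonucleotide (ASO) at 2 uM. The control ASO had a scrambled sequence (3 libraries), and the other ASO was directed against MYH7B (4 libraries). The study concerned the MYH7B transcript as a regulatory RNA of the heart. No label ties the libraries to separate differentiations, so the p-values measure the spread between these libraries, which may be technical.

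The factors belong to 5 families that bind different DNA motifs and act together on shared enhancers. GATA4 and GATA6 are zinc finger proteins, NKX2-5 is a homeodomain protein, TBX5 and TBX20 are T-box proteins, HAND1 and HAND2 are basic helix-loop-helix proteins, and MEF2A, MEF2C and MEF2D are MADS-box proteins. In the heart they specify the cardiac lineage and the chambers during development, and in differentiated muscle they sustain the genes of contraction, conduction and metabolism. MEF2 proteins are held inactive by class IIa histone deacetylases until those are exported from the nucleus.

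The upstream sequences of the 3 factors with the smallest limma p-values (MEF2A, HAND1 and HAND2) are shown first. RefSeq start sites on GRCh38.p14 gave a 250 base window before the start for 8 of the 10 factors, and where that table held several starts of a gene the most upstream was taken. MEF2A is on chromosome 15, plus strand, with its window at chr15:99565167-99565416. HAND1 is on chromosome 5, minus strand, with its window at chr5:154478228-154478477. HAND2 is on chromosome 4, minus strand, with its window at chr4:173530230-173530479. The sequences run from 5′ to 3′ on the strand of the gene and end 1 base before the start site. Capitals mark every match to the motifs searched.
MEF2A: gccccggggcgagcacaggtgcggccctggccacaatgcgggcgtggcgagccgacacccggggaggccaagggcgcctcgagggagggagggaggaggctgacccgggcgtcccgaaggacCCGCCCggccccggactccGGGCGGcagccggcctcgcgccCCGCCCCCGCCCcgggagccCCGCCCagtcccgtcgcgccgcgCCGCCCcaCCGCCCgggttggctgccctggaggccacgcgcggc
HAND1: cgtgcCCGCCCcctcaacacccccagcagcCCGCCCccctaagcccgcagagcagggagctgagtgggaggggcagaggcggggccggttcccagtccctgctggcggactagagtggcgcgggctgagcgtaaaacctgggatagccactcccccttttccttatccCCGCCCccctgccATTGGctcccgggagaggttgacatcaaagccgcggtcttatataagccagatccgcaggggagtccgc
HAND2: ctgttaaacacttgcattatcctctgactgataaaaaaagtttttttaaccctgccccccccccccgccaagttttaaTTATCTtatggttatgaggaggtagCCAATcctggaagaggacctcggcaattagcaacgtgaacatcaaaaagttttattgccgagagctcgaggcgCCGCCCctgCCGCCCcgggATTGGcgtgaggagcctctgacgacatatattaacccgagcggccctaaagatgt

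Short motifs were searched on both strands, and no matches overlapped in these windows. The GC box GGGCGG was found 7 times upstream of MEF2A, 3 times upstream of HAND1 and 2 times upstream of HAND2, and 42.6% of the 35116 RefSeq windows of this length hold it. The CCAAT box CCAAT was found once upstream of HAND1 and 2 times upstream of HAND2, and 32.0% of windows hold it. A GATA motif, AGATAA, lay 172 bases before the HAND2 start, and 9.17% of windows hold that motif. In none of the 3 windows were there matches to the TEAD motif CATTCC (11.9% of windows), the MEF2 motif (2.36%), the NKX2-5 motif CACTTNA (8.73%), the T-box motif AGGTGT (9.57%), the HAND E-box CATCTG (12.2%) or the TATA box TATAAA (10.7%). The MEF2A window had a GC content of 82.8% and 36 CG dinucleotides, the HAND1 window 67.2% and 16, and the HAND2 window 49.6% and 13, against a median GC content of 58.0% over all windows.

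The libraries were checked before the factors were compared. MYH7B ASO replicate 1 has values out of register with the gene names in the deposited table, and its column was reordered for a second analysis of 7 libraries. All values below are from the 6 other libraries unless 7 are named. The ASO target MYH7B averaged 28.2 ± 7.25 TPM in the controls against 7.09 ± 1.94 TPM for MYH7B ASO replicates 2 to 4 (SD, n = 3 each), and it fell by 1.85 on the log2 scale (limma adjusted p = 0.0109). It missed the threshold over 7 libraries (adjusted p = 0.0525), without MYH7B ASO replicate 4 (0.0618), with no filter on low values (0.0779) and in the 3 fits with a replicate block (0.161 to 0.720). The summed level of 12 cardiomyocyte markers was 14407 to 15590 TPM in the scrambled ASO libraries and 11330 to 13422 TPM in MYH7B ASO replicates 2 to 4, with 8808 TPM in the reordered replicate 1. Markers of other cell types were also detected, with WT1, an epicardial marker, at 43.2 TPM and MYH11, a smooth muscle marker, at 70.1 TPM on average with the scrambled ASO. The hepatic marker ALB and the endoderm factor SOX17 were listed at 0 in 2 of those 3 libraries, and the pluripotency factor NANOG was at 0.0929 to 0.125 TPM. The full list of 7 pluripotency markers summed to 5.05 to 8.37 TPM with the scrambled ASO, and 3 of the 7 were expressed highly enough to be tested. In bulk RNA, fewer cells of a type and less RNA per cell cannot be told apart.

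With the scrambled ASO the 10 factors spanned mean levels from 155 TPM for GATA4 to 9.91 TPM for HAND1, which placed them at the 96.8th and the 51.3rd percentile of tested genes. The order of mean levels was GATA4, NKX2-5, HAND2, TBX20, MEF2A, TBX5, GATA6, MEF2D, MEF2C and HAND1. GATA4 stood above NKX2-5 in every scrambled ASO library with no overlap. NKX2-5, HAND2, TBX20, MEF2A and TBX5 followed closely, and each neighbouring pair among them had overlapping ranges. From TBX5 downward, each factor's lowest scrambled ASO library was above the highest of the next factor. The spread between scrambled ASO libraries was smallest for NKX2-5, with a coefficient of variation of 4.07%, and largest for TBX20 with 40.0%. Scrambled ASO replicate 2 held the highest value of its group for 6 of the 10 factors, among them all 3 MEF2 genes.

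**Figure D1:**
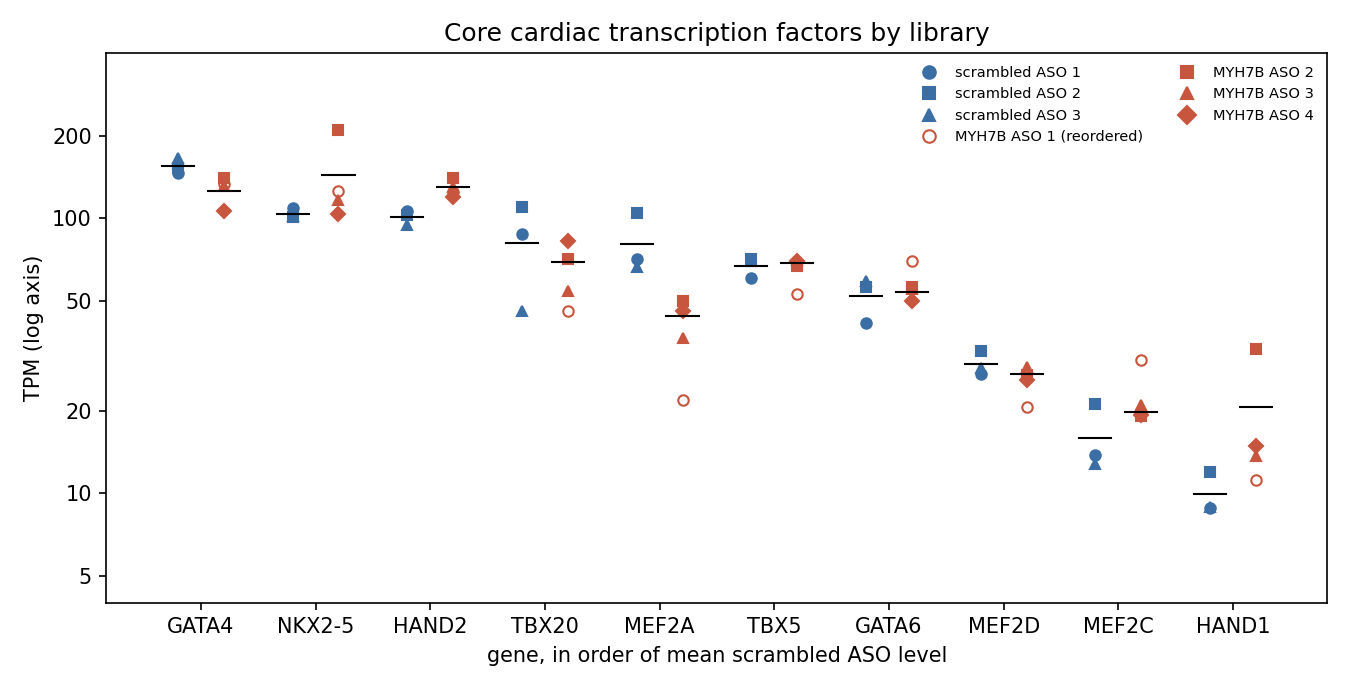
Level of each factor in every library, in TPM on a log axis, with genes in order of mean scrambled ASO level. Blue points are the 3 scrambled ASO libraries, filled red points MYH7B ASO replicates 2 to 4, the open red point the reordered replicate 1, and bars the means of 3 blue or 3 filled red points. The 3 filled red MEF2A points, 36.7 to 50.2 TPM, lie under all blue points, and the GATA6 and TBX5 points of both groups overlap.

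Across the 10 factors, 4 had groups that did not overlap over the 6 libraries: MEF2A and GATA4 were lower with the MYH7B ASO, and HAND1 and HAND2 were higher. Among all tested genes 21.2% had groups that did not overlap, 7.11% higher and 14.1% lower. None of the 10 factors passed limma's test (adjusted p under 0.05 over all tested genes), while 1.66% of tested genes did. At an unadjusted p under 0.05 in limma there were 3 of 10 (MEF2A, HAND1 and HAND2), against 15.2% of tested genes. The same 3 factors had an adjusted p-value under 0.05 in the authors' deposited table, MEF2A lower and HAND1 and HAND2 higher. Of the genes with an adjusted p-value there, 8.71% passed, 3.02% higher and 5.69% lower. The median log2 fold change of the 10 factors was 0.046, against -0.044 for all tested genes, with 6 factors above 0 and 4 below. Fold changes from limma are on the log2(TPM + 1) scale, as MYH7B ASO minus scrambled ASO. Over 7 libraries none of the 10 factors passed in limma, against 1.07% of tested genes, and 3 of 10 had groups that did not overlap (GATA4, HAND2 and MEF2A), against 14.9%.

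**Figure D2:**
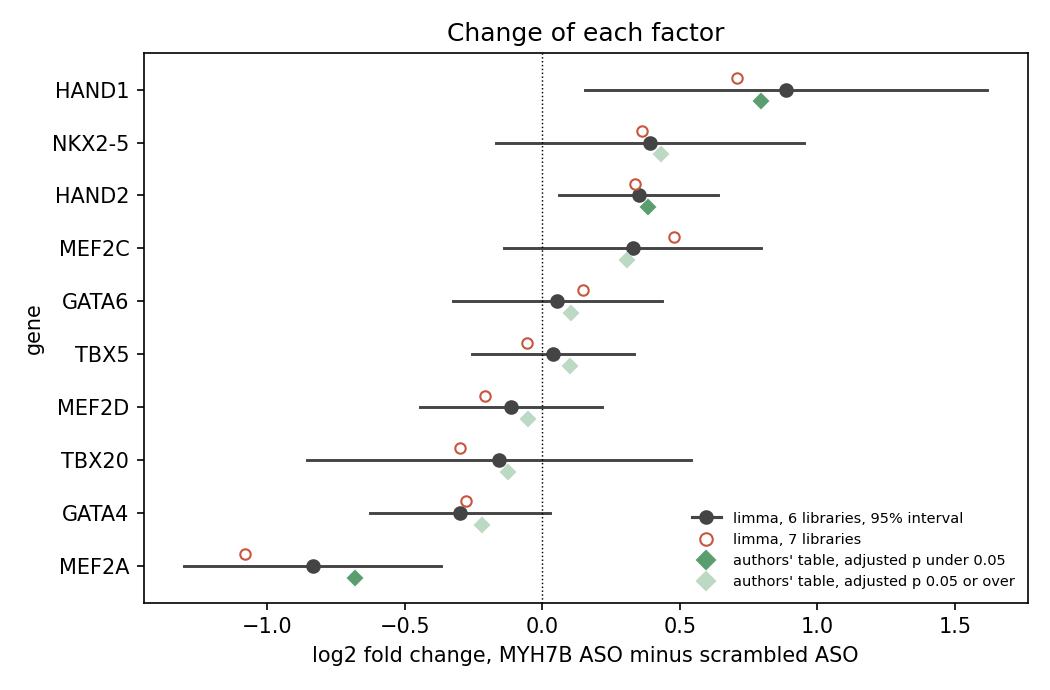
Log2 fold change of each factor, MYH7B ASO minus scrambled ASO, on the horizontal axis and genes on the vertical axis. Dark points with 95% intervals are limma over 6 libraries, open circles limma over 7 libraries, and diamonds the authors' deposited values, darker where their adjusted p-value was under 0.05. The intervals of MEF2A, HAND1 and HAND2 leave out 0, and those of the other 7 factors hold it.

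Among the MEF2 genes, MEF2A had the largest difference. MEF2A encodes a MADS-box activator of muscle and mitochondrial genes (ENSG00000068305.17, chromosome 15, 99565417 to 99716466). Scrambled ASO replicates 1 to 3 held 71.4, 105 and 66.5 TPM of it, against 50.2, 36.7 and 46.1 TPM for MYH7B ASO replicates 2 to 4. Every MYH7B ASO library was below every scrambled ASO library, and the reordered replicate 1 was lowest of all at 21.8 TPM. Group means were 80.9 ± 20.8 TPM and 44.3 ± 6.90 TPM (SD, n = 3 each). The log2 fold change was -0.84, with 0.20 as its standard error. The limma adjusted p was 0.0976, and the 95% interval of the log2 fold change ran from -1.30 to -0.37. In the authors' deposited table MEF2A fell by 0.68 on the log2 scale with an adjusted p-value of 0.00436.

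MEF2C, the MEF2 gene required for early heart tube formation (ENSG00000081189.15, chromosome 5, 88717117 to 88904257), did not share the direction of MEF2A. It had 13.8, 21.1 and 12.8 TPM with the scrambled ASO and 19.1, 20.9 and 19.3 TPM with the MYH7B ASO. The groups overlapped because scrambled ASO replicate 2 was the highest of the 6 libraries. The log2 fold change of MEF2C, 0.33 ± 0.20 (standard error), did not pass (limma adjusted p = 0.499). It was 0.54 without scrambled ASO replicate 2 and 0.20 without replicate 3. MEF2D, a MEF2 protein expressed in most tissues (chromosome 1, 156463727 to 156500828), had 27.1, 32.9 and 28.6 TPM with the scrambled ASO and 26.9, 28.8 and 25.7 TPM with the MYH7B ASO. Its groups overlapped, and the 95% interval of its fold change ran from 0.734 to 1.16. Its log2 fold change was -0.11, and -0.037 without scrambled ASO replicate 2. MEF2B, the remaining member of the family, was close to 1 TPM in both groups, at 1.37 ± 0.0842 TPM (SD, n = 3) and 1.24 ± 0.301 TPM (SD, n = 3).

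The balance among the MEF2 genes was compared within each library. MEF2A made up 63.6%, 66.0% and 61.7% of the summed MEF2A, MEF2C and MEF2D level in the scrambled ASO libraries and 52.2%, 42.5% and 50.6% in MYH7B ASO replicates 2 to 4. MEF2C made up 12.3%, 13.3% and 11.8%, then 19.8%, 24.2% and 21.2%. The ratio of MEF2C to MEF2A was 0.193, 0.202 and 0.192 with the scrambled ASO, a narrow range although both genes were highest in replicate 2. It was 0.380, 0.568 and 0.418 with the MYH7B ASO, above every scrambled ASO library. Its log2 means were -2.35 ± 0.041 with the scrambled ASO and -1.16 ± 0.30 with the MYH7B ASO (SD, n = 3 each), which differ by 1.20. The ratio of MEF2D to MEF2A went from -1.43 ± 0.23 to -0.70 ± 0.30 on the log2 scale (SD, n = 3 each), a difference of 0.73, again with no overlap. With 3 libraries against 3 the 2-sided exact permutation test gave p = 0.1 for both ratios, the smallest it can give (0.167 adjusted over the 5 ratios compared). In the reordered replicate 1 the log2 ratio of MEF2C to MEF2A was 0.49 and that of MEF2D to MEF2A -0.084, the highest of all libraries. With it included the exact permutation p was 0.0286 for both, the smallest 35 splits allow, and 0.0476 adjusted over the 5 ratios. Among single tested genes 14.9% had groups that did not overlap over 7 libraries, and no such share was computed for ratios. MEF2C itself was at 30.6 TPM in the reordered replicate 1, far from the 19.1 to 20.9 TPM of MYH7B ASO replicates 2 to 4.

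**Figure D3:**
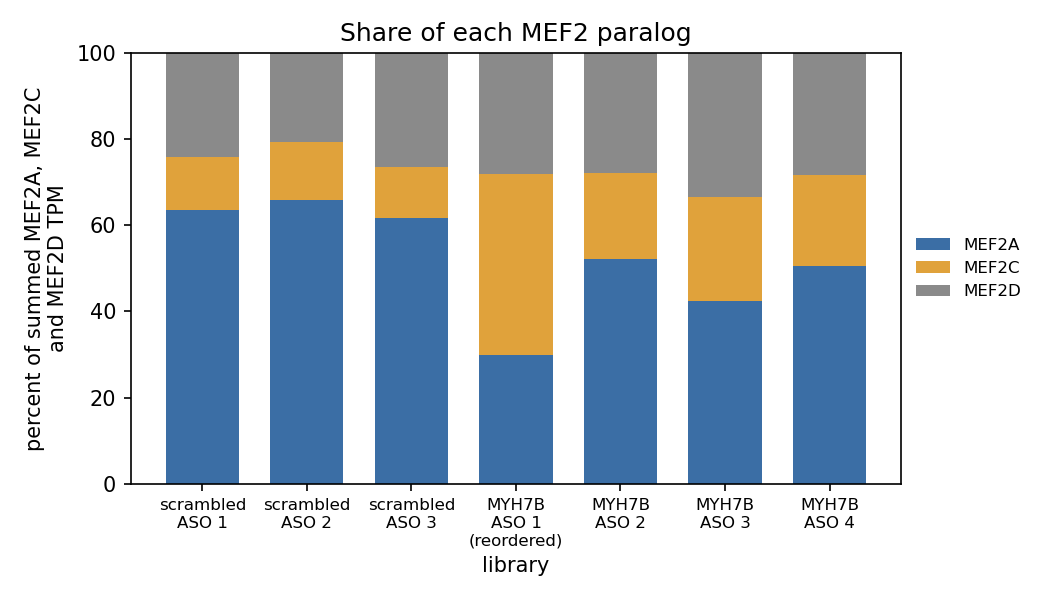
Share of MEF2A, MEF2C and MEF2D in their summed TPM, in percent, as stacked bars for each of the 7 libraries. The MEF2A segment covers 61.7% to 66.0% of the bar in the 3 scrambled ASO libraries and 42.5% to 52.2% in MYH7B ASO replicates 2 to 4, with 29.9% in the reordered replicate 1.

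The HAND factors both had higher mean levels with the MYH7B ASO. HAND1, a factor of left ventricular development (ENSG00000113196.3, chromosome 5, 154474972 to 154478264), had 8.86, 12.0 and 8.91 TPM with the scrambled ASO and 33.4, 13.7 and 14.9 TPM in MYH7B ASO replicates 2 to 4. Replicate 2 was more than any other library, and the reordered replicate 1, at 11.2 TPM, lay inside the scrambled ASO range. Group means were 9.91 ± 1.78 TPM and 20.6 ± 11.1 TPM (SD, n = 3 each). The log2 fold change, 0.89 ± 0.32 (standard error), did not pass (limma adjusted p = 0.236). Without MYH7B ASO replicate 2 the log2 fold change of HAND1 was 0.50 (limma adjusted p = 0.440). HAND1 rose by 0.80 on the log2 scale in the authors' deposited table (adjusted p-value 0.00887).

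HAND2, a factor of right ventricular development that is also expressed in cardiac stromal cells (ENSG00000164107.8, chromosome 4, 173524969 to 173530229), was the more abundant of the pair, with HAND1 at 0.0831 to 0.116 of its level per length with the scrambled ASO. HAND2 had 107, 103 and 94.9 TPM there and 140, 130 and 119 TPM in MYH7B ASO replicates 2 to 4, with 125 TPM in the reordered replicate 1. All 4 MYH7B ASO libraries were above all 3 scrambled ASO libraries in TPM. Mitochondrially encoded genes held 17.2% of TPM in the reordered replicate 1 and 27.4% to 33.2% in the scrambled ASO libraries. The part of this in the HAND2 level of replicate 1 was not tested. The log2 fold change, 0.35 ± 0.13 (standard error), did not pass in limma (adjusted p = 0.237). HAND2 rose by 0.38 on the log2 scale in the authors' deposited table (adjusted p-value 0.0378). HAND2-AS1, a noncoding gene on the opposite strand (173527270 to 173659696) that overlaps HAND2 and its start site, had 66.9, 87.9 and 75.1 TPM and then 98.3, 74.2 and 65.4 TPM, with overlapping groups and a log2 fold change of 0.037. The ratio of HAND1 to HAND2 overlapped between the groups (difference of 0.59 on the log2 scale, exact permutation p = 0.2, adjusted p = 0.25 over the 5 ratios). Without MYH7B ASO replicate 2 that difference was 0.24.

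GATA4, a pioneer factor for cardiac enhancers (ENSG00000136574.17, chromosome 8, 11676959 to 11760002), was the most abundant of the 10. It had 146, 153 and 166 TPM with the scrambled ASO and 141, 132 and 107 TPM in MYH7B ASO replicates 2 to 4. The groups were adjacent with no overlap, and the reordered replicate 1 had 134 TPM. Its log2 fold change of -0.30 ± 0.14 (standard error) did not pass in limma (adjusted p = 0.370), nor did it pass in the authors' deposited table (adjusted p-value 0.276). Without MYH7B ASO replicate 4 it was -0.18. GATA6, which shares functions with GATA4 in cardiac and endodermal cells (chromosome 18, 22169443 to 22202528), had 41.6, 56.2 and 59.4 TPM and then 56.4, 55.3 and 49.9 TPM. The groups overlapped, with a log2 fold change of 0.054. The 95% interval of the GATA6 fold change ran from 0.797 to 1.35. GATA6-AS1, the noncoding neighbour of GATA6, averaged 32.6 ± 0.888 TPM and 31.9 ± 7.77 TPM (SD, n = 3 each).

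The GATA6 to GATA4 ratio was 0.284, 0.368 and 0.357 with the scrambled ASO and 0.401, 0.421 and 0.468 in MYH7B ASO replicates 2 to 4. It did not overlap between the groups, with a log2 difference of 0.36 (exact permutation p = 0.1, the smallest possible, and 0.167 adjusted over the 5 ratios). With the reordered replicate 1, at 0.523, the exact permutation p was 0.0286, again the smallest 35 splits allow, and 0.0476 adjusted. Among single tested genes 14.9% had groups that did not overlap over 7 libraries, and no such share was computed for ratios. Levels of the 5 ratios rest on the same 7 libraries and are not independent of each other.

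**Figure D4:**
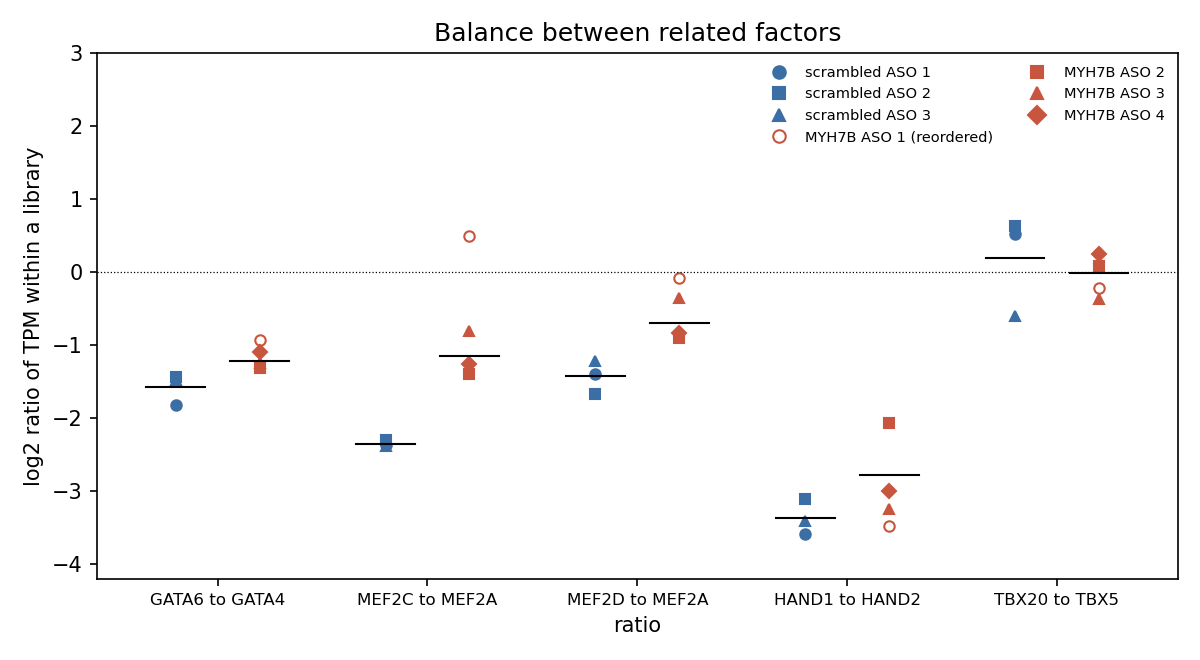
Log2 ratio of TPM between related factors within each library, for the 5 pairs compared. Blue points are scrambled ASO libraries, filled red points MYH7B ASO replicates 2 to 4, open red points the reordered replicate 1, and bars the means of 3 points. The MEF2C to MEF2A points are between -2.38 and -2.31 with the scrambled ASO, and all red points lie above -2.31, while the TBX20 to TBX5 points of both groups overlap.

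NKX2-5, the homeodomain factor of early cardiac progenitors and of conduction tissue (ENSG00000183072.10, chromosome 5, 173232109 to 173235357), had the most even scrambled ASO levels. They were 109, 101 and 102 TPM, against 210, 117 and 104 TPM in MYH7B ASO replicates 2 to 4 and 126 TPM in the reordered replicate 1. Replicate 2 was far above the rest, and replicate 4 lay within the scrambled ASO range. The log2 fold change of 0.39 ± 0.24 (standard error) did not pass (limma adjusted p = 0.503). Without MYH7B ASO replicate 2 the NKX2-5 value was 0.081 (limma adjusted p = 0.882). In MYH7B ASO replicate 2 NKX2-5, HAND1 and HAND2 were at their highest of all libraries. Among MYH7B ASO replicates 2 to 4, replicate 2 held the highest value for 6 of the 10 factors.

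The T-box factors had overlapping groups and did not pass in limma. TBX5, a factor of left ventricular and atrial identity and of conduction (chromosome 12, 114353931 to 114408442), had 60.9, 71.2 and 70.1 TPM and then 67.0, 70.4 and 69.9 TPM. Its fold change was 1.03 with a 95% interval from 0.837 to 1.26. TBX5-AS1 averaged 13.3 ± 4.20 TPM and 8.73 ± 3.60 TPM (SD, n = 3 each), with overlapping groups (limma adjusted p = 0.444). TBX20, which acts as both activator and repressor in adult heart muscle (chromosome 7, 35202430 to 35254147), had 87.7, 110 and 46.2 TPM and then 71.2, 54.7 and 82.5 TPM. The scrambled ASO libraries enclosed all MYH7B ASO values but that of the reordered replicate 1 (45.9 TPM), and the interval of the fold change was wide, from 0.552 to 1.45. The TBX20 to TBX5 ratio overlapped between groups (exact permutation p = 0.6, and 0.6 adjusted over the 5 ratios). Its log2 difference was -0.20, and -0.59 to 0.025 with single libraries left out, lowest without scrambled ASO replicate 3.

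Cofactors and partner factors of the 10 were taken from a list of 36 symbols, of which 33 were tested. Over the 6 libraries 1 was called higher and 0 lower, against 0.181% and 1.48% of tested genes called in those directions, and 8 had an unadjusted p under 0.05 in limma, against 15.2% of tested genes. The gene called was ISL1, a factor of cardiac progenitors and of pacemaker cells. ISL1 had 9.03, 9.52 and 11.1 TPM with the scrambled ASO and 18.6, 24.4 and 18.6 TPM in MYH7B ASO replicates 2 to 4, so that every MYH7B ASO library was above every scrambled ASO library. ISL1 rose by 0.98 ± 0.18 (log2, standard error; limma adjusted p = 0.0359), was also called over 7 libraries (0.0436), and was not called when any 1 of the 6 libraries was left out (0.0649 to 0.135). The median log2 fold change of the 33 was 0.039.

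Of the 33, 7 passed in the authors' deposited table, 6 higher and 1 lower, against 8.71% of its genes in all, 3.02% higher and 5.69% lower. Those named here were chosen after their values were seen. Among the higher ones beside ISL1 were TBX2, GATA5, ZFPM1 and NFATC4, with log2 fold changes of 0.89, 0.59, 0.60 and 0.50 in the authors' deposited table. TBX2 represses chamber genes in the atrioventricular canal, GATA5 is a further cardiac GATA factor, and ZFPM1 is a cofactor of GATA proteins. TBX2 had 10.1, 11.5 and 13.6 TPM with the scrambled ASO and 27.1, 20.1 and 19.3 TPM with the MYH7B ASO, with no overlap (limma adjusted p = 0.0764). The lower one was HDAC7, a class IIa deacetylase that binds MEF2 proteins, at -0.82 in the authors' deposited table. HDAC7 had 17.9, 9.05 and 16.6 TPM and then 8.29, 6.24 and 5.77 TPM, with 15.0 TPM in the reordered replicate 1 (limma adjusted p = 0.142 over 6 libraries and 0.414 over 7). The other class IIa deacetylases listed differed in direction and were not called in limma. Their log2 fold changes were 0.33 for HDAC4, 0.13 for HDAC5 and -0.44 for HDAC9. HDAC5 was more abundant than HDAC7, at 80.8 TPM on average with the scrambled ASO.

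Textbook target genes of the 10 factors were taken from a list of 40 symbols, of which 39 were tested. In limma 6 were called lower and 0 higher, against 1.48% and 0.181% of tested genes, and 33 were not called. The median log2 fold change of the 39 was -0.39, against -0.044 for all tested genes. Among the 6 called, the 5 with the largest falls were MYL2, ANKRD1, MYL4, CACNA1C and SYNPO2L. MYL2, the ventricular myosin light chain, fell from 18.8 ± 2.62 to 4.25 ± 1.69 TPM (SD, n = 3 each), and MYL4, the atrial light chain, from 1043 ± 197 to 376 ± 41.6 TPM. ANKRD1, a stress-responsive titin-binding protein, fell by 1.72, CACNA1C, the L-type calcium channel subunit, by 1.36, and SYNPO2L, an actin-associated Z-disc protein, by 1.16 on the log2 scale. The sixth was ACTC1, cardiac alpha-actin, with a limma adjusted p of 0.261 over 7 libraries and calls in 0 of the 6 fits that left out a library. When single libraries were left out, 2 to 5 of the list were called lower. CACNA1C was then called in 0 of 6 fits, ANKRD1 in 2, MYL2 and SYNPO2L in 5 and MYL4 in 6, and over 7 libraries 5 were called, against 1.07% of tested genes. MYH7, the slow myosin heavy chain, had 1207, 1146 and 535 TPM with the scrambled ASO and 568, 256 and 358 TPM in MYH7B ASO replicates 2 to 4 (log2 fold change -1.27, limma adjusted p = 0.148). MYH6, the fast one, had overlapping groups and a log2 fold change of 0.14.

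Markers of other cell types were summed in each library. Summed fibroblast markers were 2963 to 5343 TPM with the scrambled ASO and 1411 to 2164 TPM in MYH7B ASO replicates 2 to 4, with 2 of 12 called lower (COL1A2 and LUM) and 0 higher in limma, against 1.48% and 0.181% of tested genes. COL1A2 and LUM were each called in 1 of the 6 fits that left out a library. The 12 did not all fall, with log2 fold changes below 0 for 10 and above 0 for 2. Groups did not overlap over the 6 libraries for 7 lower and 2 higher markers, against 14.1% and 7.11% of tested genes. At an adjusted p-value under 0.05, 6 of the 12 were lower and 2 higher in the authors' deposited table. Among all genes with an adjusted p-value there, 5.69% were lower and 3.02% higher. The fibroblast sum in the reordered replicate 1 was 4247 TPM, inside the scrambled ASO range, and over 7 libraries 0 of the 12 were called. Summed smooth muscle markers were 1078 to 1529 TPM and then 625 to 852 TPM. The reordered replicate 1, at 1340 TPM, was again inside the scrambled ASO range. In limma 1 of the 8 was called lower (MYH11) and 0 higher, against 1.48% and 0.181% of tested genes. Groups did not overlap over the 6 libraries for 5 lower and 0 higher of them, against 14.1% and 7.11% of tested genes. In the authors' deposited comparison, 5 of the 8 passed as lower and 0 as higher, against 5.69% and 3.02% of genes there. Summed epicardial markers overlapped, at 965 to 1264 TPM and 982 to 1314 TPM, with 1410 TPM in the reordered replicate 1. Summed endoderm and hepatic markers were 4.71 to 6.86 TPM and then 10.4 to 16.3 TPM, with 14.9 TPM in the reordered replicate 1. Only 1 of these 10 markers was expressed highly enough to be tested, and it was not called in limma (log2 fold change 1.06). Its unadjusted limma p was under 0.05, against 15.2% of tested genes. Its groups did not overlap over the 6 libraries, against 7.11% of tested genes higher in that way. It passed as higher in the authors' deposited table, against 3.02% of genes there. The endothelial sum was 18.4 to 22.6 TPM and then 11.5 to 17.6 TPM, and the reordered replicate 1, at 25.4 TPM, was above every scrambled ASO library. Summed neural markers were 22.0 to 26.1 TPM and then 16.2 to 25.5 TPM, with 69.6 TPM in the reordered replicate 1. Of the 2 neural markers tested 1 was called lower (STMN2), against 1.48% of tested genes. STMN2 was called in 1 of the 6 fits that left out a library. None of the markers in these lists was listed at 0 in all 6 libraries. The part of these cells in the levels of the 10 factors was not tested.

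The genes whose pattern over the 6 libraries was most like that of MEF2A, HAND1 and HAND2 were found by Pearson's r of log2(TPM + 1) among 7543 genes with at least 10 TPM on average. For MEF2A they were ELP3 (0.998), KIDINS220 (0.992) and CEP70 (0.989), and 47 genes had an r over 0.95. For HAND1 they were ALDH4A1 (0.995), LINC00881 (0.994) and TPI1 (0.991), and 55 genes had an r over 0.95. For HAND2 they were LHFPL2 (0.997), PATZ1 (0.988) and HDHD3 (0.987), with 34 genes over 0.95. The correlations rest on 6 libraries in 2 groups and are given as a description.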

How the data were processed

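Poly-A RNA of 7 libraries (3 scrambled ASO, 4 MYH7B ASO) was analysed from the deposited tables. The deposited expression values are TPM computed by the authors. Per the submitters' processing notes the genome build was GRCh38.p13 and DESeq2 was used. The aligner, quantifier and annotation are not given in the sources used here. TPM keeps no sequencing depth, since each deposited column sums to 1000000, so no counting intervals are given. The authors' deposited comparison table holds a mean normalized signal, a shrunken log2 fold change with its standard error and test score, and p-values before and after adjustment. Which libraries entered it is not stated.

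The column of MYH7B ASO replicate 1 was filled in 58721 of 60234 positions. Against the other 6 it had a median Pearson's r of 0.408 as deposited and 0.955 with the 58721 GENCODE 29 identifiers assigned in sorted order. The gene models behind it are not stated. It enters only the 7-library values, over 58072 genes.

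Genes with a mean of 1 TPM or more were tested with limma 3.58.1 (R 4.3.3; lmFit, eBayes with trend, no covariate) on log2(TPM + 1) with Benjamini-Hochberg adjustment over all tested genes. The 95% intervals are limma's. Ratios were compared with 2-sided exact permutation tests over libraries. The scripts were tested on simulated data. Tables and figures were made in Python 3.11.15 (pandas 2.3.3, matplotlib 3.10.9). Gene positions are from GENCODE 29 and upstream sequences from RefSeq (GRCh38.p14). Counting by strand is not given in the sources used here, so reads of a factor and an overlapping antisense gene cannot be told apart.

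The named genes were the 10 factors, MYH7B, MYH6, MYH7, antisense partners, called members of fixed lists (at most 5 by size of change) and the 3 most similar genes of the 3 factors with the smallest p. Also named, outside that rule, were ACTC1, MEF2B, the class IIa deacetylases and cofactors that passed in the authors' deposited table. WT1, ALB, SOX17 and NANOG were named as cell type markers. One gene of the cofactor list is not reported here. The factors and lists were chosen with earlier results of these data known. Alternatives covered pseudocounts, filters, rescaling, mitochondrially encoded genes, variance settings, replicate blocks and leaving out libraries.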

Additional observations from a re-analysis of the deposited data

Results flagged for a closer look

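Chance gives about 1 library far from the others of its group in 20 such checks. Among 16 measures examined in the 4 MYH7B ASO libraries (the 10 factors, MYH7B and the 5 ratios), 2 had such a library. HAND1 was at 33.4 TPM in replicate 2, against 11.2 to 14.9 TPM in the other 3. MEF2C was at 30.6 TPM in the reordered replicate 1, against 19.1 to 20.9 TPM in the other 3. Mitochondrially encoded genes held 17.2% of TPM in that library and 27.4% to 33.6% elsewhere. The part of this in its MEF2C level, and in its levels of the other factors, was not tested.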

How the results depend on the processing

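None of the 10 factors was called in limma under any of the 19 alternatives run. MEF2A came closest, with limma adjusted p-values from 0.0618 (a minimum mean of 5 TPM) to 0.269 outside the block fits. GATA4, NKX2-5, HAND1, HAND2, MEF2A, MEF2C and MEF2D kept the sign of their log2 fold change in all 19. TBX5, at 0.038, turned to -0.055 over 7 libraries and -0.033 without scrambled ASO replicate 1. Leaving out single libraries gave up to 0.079, and the highest value was 0.10 with median-ratio rescaling. GATA6, at 0.054, turned to -0.10 without scrambled ASO replicate 1. Leaving out single libraries gave up to 0.15, and the highest value was 0.21 over 7 libraries with the title replicate block. TBX20, at -0.16, ranged from -0.52 without scrambled ASO replicate 3 to 0.10 without replicate 2, and was 0.0020 without MYH7B ASO replicate 3. The number of genes called over all genes was 265, and it was 170 over 7 libraries, 40 with no filter on low values, 150 without the variance trend and 53 to 149 when single libraries were left out, lowest without MYH7B ASO replicate 4. The calls were 29 higher and 236 lower, and 58 higher and 213 lower with median-ratio rescaling. The log2 difference of the MEF2C to MEF2A ratio was 1.61 over 7 libraries and 1.03 to 1.32 with single libraries left out.

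With the replicate block by title number, which leaves 2 pairs, 0 genes were called in limma (1718 at an unadjusted p under 0.05), and with the replicate block by description number 0 (1096). Over 7 libraries with the title block, an alternative added after the data were seen, 0 were called (1773). Under the title replicate block GATA6 was -0.047, TBX5 -0.041 and the GATA6 to GATA4 ratio difference 0.18. Under the description block GATA6 was -0.13, TBX5 -0.011 and the HAND1 to HAND2 ratio difference 0.13, and over 7 libraries with the title block TBX5 was -0.091. Over the 6 libraries, same-numbered libraries had deviations correlated at 0.0759 and 0.110 by title, against -0.0729 to 0.0412 for the other pairs. By description they were correlated at -0.0729 and -0.0387, against -0.0693 to 0.110 for the other pairs. Whether same-numbered libraries share a batch was not tested. No depth is known for any library. The limma intervals rest on the spread of 3 libraries per group, with each gene's variance drawn towards a trend over all tested genes.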
